A study of Mus musculus with 26 samples.

Results

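Nuclear receptors are transcription factors, many of which are switched by small fat-soluble ligands such as steroid hormones, thyroid hormone, retinoic acid and vitamin D. The set described here is 39 mouse genes of this superfamily, chosen by gene symbol, and all 39 were found among the 38828 genes of the authors' RPKM table. Of these, 37 had enough reads to be tested, and Hnf4a and Nr2e1 did not, with at most 9 and 2 counts in any library. A receptor of this kind binds DNA through zinc fingers and binds its ligand through a separate pocket, which also recruits coactivators or corepressors. Some members, such as the estrogen-related receptors, have no established natural hormone and are active without one. In sensory ganglia the superfamily is known for steroid effects on pain and for retinoid and thyroid effects on neurons, while the estrogen-related receptors are known for genes of oxidative metabolism.

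RNA was sequenced from 8 subtypes of dorsal root ganglion neuron, the primary sensory neurons of body and limbs, sorted by fluorescence from adult mice at postnatal day 23 or later. Nonpeptidergic nociceptors came from MrgD-EGFP mice, peptidergic nociceptors from CGRP-GFP mice, and rapidly adapting Aβ low-threshold mechanoreceptors (Aβ RA-LTMRs) from Npy2r-GFP mice. C-LTMRs came from ThCreER;R26tdtomato(Ai14) mice given 2 mg of tamoxifen a day at postnatal days 13 to 14 or 14 to 15. Aδ-LTMRs came from TrkBCreER;R26tdtomato(Ai14) mice given 2 mg a day at embryonic days 12 to 13. Slowly adapting Aβ SA1-LTMRs and Aβ Field-LTMRs shared the alleles TrkCCreER;Retf(GFP). They differed in tamoxifen, at 3 mg a day on E12.5 (mid embryonic life) for SA1 and 2 mg a day at postnatal days 13 to 14 or 14 to 15 for Field. Proprioceptors, the muscle afferents, came from PVIRESCre;R26tdtomato(Ai14) mice and from thoracic ganglia alone, because that line also labels some skin LTMRs at limb levels. Aβ RA-LTMRs had 5 libraries and every other subtype 3, which makes 26, and each library pooled several mice and sorting rounds. A subtype therefore cannot be told apart from the reporter line, the tamoxifen or, for proprioceptors, the level of the ganglia that came with it.

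Total counts ran from 10706522 to 66309214 per library, and the members together took 0.0332% to 0.0924% of them. The reporter-linked genes Mrgprd, Calca, Th and Pvalb were each highest in their own subtype. Npy2r was not, with a mean of 20.4 CPM (counts scaled to library size) in Aβ RA-LTMRs and 52.9 CPM in peptidergic nociceptors. All 16 listed markers of satellite glia, the support cells that wrap these neurons, had counts in every subtype. Their summed level was 611 to 754 CPM in nonpeptidergic nociceptors and rose through the subtypes to 3784 to 6517 CPM in proprioceptors. Markers of endothelial cells summed to 44.4 to 83.0 CPM in Aδ-LTMRs and to at most 19.7 CPM in any other library. These sums are high or low in the same subtypes as several results below. In sorted pools, fewer cells of a type and less RNA per cell cannot be told apart.

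Promoter stretches are given for 6 members on which the results turn, and for the retinoid X receptor gene Rxrg. They were read from RefSeq promoter windows of GRCm38.p6, each of 250 bases before to 50 bases after a start, of which 37 of the 39 members had at least 1 and 58 in all. The stretches are 5′ to 3′ on the gene's strand, and all but that of Rarb lie outside annotated exons. Capitals mark a named motif, searched on both strands. The first 3 are the estrogen-related receptor genes, whose highest subtype mean was in each case that of proprioceptors, and the fourth is Vdr, the member enriched in Aβ SA1-LTMRs.
Esrrg, chr1:187608900-187609005, plus strand: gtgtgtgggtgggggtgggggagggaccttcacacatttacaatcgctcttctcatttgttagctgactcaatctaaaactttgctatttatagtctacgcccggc
Esrrb, chr12:86360997-86361116, plus strand: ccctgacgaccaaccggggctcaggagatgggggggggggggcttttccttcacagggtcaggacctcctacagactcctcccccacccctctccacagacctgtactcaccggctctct
Esrra, chr19:6921814-6921933, minus strand: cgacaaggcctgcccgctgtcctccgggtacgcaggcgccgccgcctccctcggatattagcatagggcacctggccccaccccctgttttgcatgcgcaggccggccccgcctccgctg
Vdr, chr15:97908311-97908430, minus strand: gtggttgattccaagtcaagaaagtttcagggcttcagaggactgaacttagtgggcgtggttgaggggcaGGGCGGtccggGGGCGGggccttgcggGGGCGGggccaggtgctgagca
The capitals in Vdr are 3 GC boxes (GGGCGG), a word found in 35.7% of all 32841 windows of this length and in 46.6% of the member windows. The Esrra window also holds GC boxes, at -240 and -157 from the start, which its printed stretch does not reach. The Esrrg stretch is from window 1 of that gene, and its windows 3 and 4 hold GC boxes. None of the 58 member windows held TNAAGGTCA, the extended AGGTCA word of the estrogen-related receptors, which 1.28% of all windows hold. The Rarb stretch below carries GTTCANNNNNNGTTCA, the repeated retinoic acid response word, which 0.0761% of all windows and 1 of the 58 member windows hold. The Rxra and Rxrg stretches, each from window 2 of its gene, carry AAAGGTCA. This word, bound by the NR4A receptors, is found in 1.51% of all windows and in 2 of the 58. It contains AGGTCA, which 16.3% of all windows and 17.2% of the member windows hold.
Rarb, chr14:16575506-16575535, minus strand: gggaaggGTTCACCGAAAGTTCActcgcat
Rxra, chr2:27709216-27709275, plus strand: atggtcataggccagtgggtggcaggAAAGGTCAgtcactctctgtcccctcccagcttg
Rxrg, chr1:167618149-167618208, plus strand: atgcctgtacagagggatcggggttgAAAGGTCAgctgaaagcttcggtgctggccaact
A match of letters is a description of the window, and promoter activity was not measured.

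Across the 8 subtypes the nuclear receptor genes were mostly low-level genes with large differences between subtypes. Per length, as the mean RPKM over subtypes (the authors' reads scaled to gene length and library size), Thra, a thyroid hormone receptor gene, stood highest at 44.8. Nr1h2, a liver X receptor gene, followed at 19.5, then Esrrg at 10.37, the orphan receptor gene Nr2c2 at 10.36 and the activity-induced Nr4a1 at 9.79. In all, 25 of the 39 members reached a mean of 1 RPKM. A level in nonpeptidergic nociceptors was the lowest of the 8 for 23 of the 37 tested members, and in proprioceptors it was the highest for 10, both in CPM. The matching shares of all tested genes were not computed, so these counts describe the members alone. On the authors' RPKM scale the highest subtype was another one for 12 of the 37, among them Esr1, Thrb, Rarg, Rora and Ppard. Levels and overlaps are in CPM where no other scale is named. In edgeR's quasi-likelihood F test, 33 of the 37 (89.2%) differed over the subtypes at a Benjamini-Hochberg adjusted p under 0.05, beside 78.3% of all 17411 tested genes. With at least 8-fold between the highest and lowest subtype as well, 22 (59.5%) passed, beside 25.7% of all genes. Nr1h2, Nr1i3, Nr2c1 and Rxrb did not pass the F test, and the subtype means of Rxrb, a common partner receptor, ran from 10.7 to 15.3 CPM. Between pairs of subtypes, the most members passed between nonpeptidergic nociceptors and Aβ RA-LTMRs (27, or 73.0%, beside 35.5% of all genes). The fewest passed between Aβ RA-LTMRs and proprioceptors (4, or 10.8%, beside 11%).

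**Figure D1:**
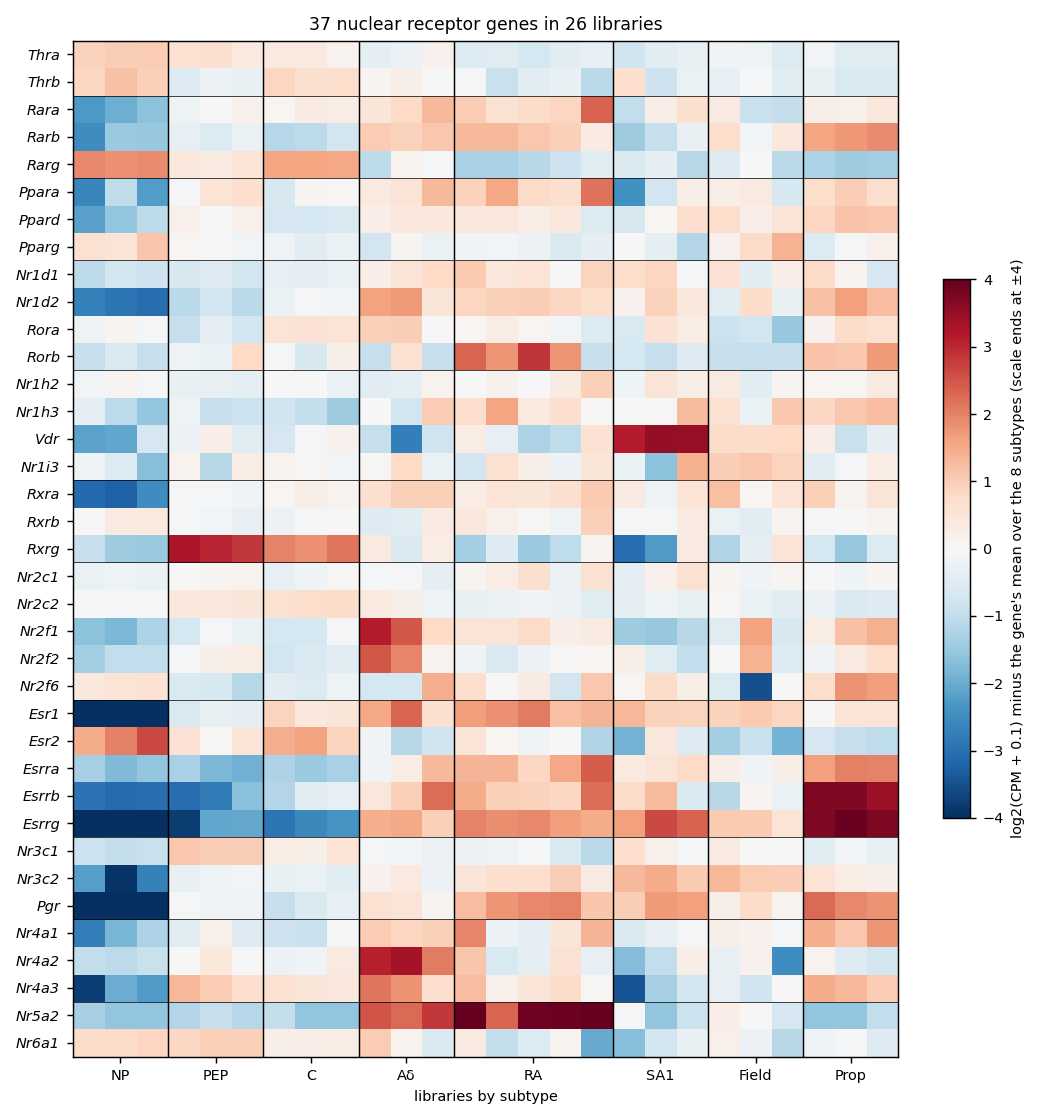
Each of the 37 tested members (rows, grouped by receptor family) in each of the 26 libraries (columns, grouped by subtype: NP and PEP, nonpeptidergic and peptidergic nociceptors; C, Aδ, RA, SA1 and Field, the LTMRs; Prop, proprioceptors). Colour is log2(CPM + 0.1) minus the member's mean over the 8 subtypes, with the scale ending at ±4. The dark blue stretch at the left is Esr1, Esrrg and Pgr in nonpeptidergic nociceptors, and the dark red at the right is Esrrb and Esrrg in proprioceptors.

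Of the estrogen-related receptor genes, Esrrg and Esrra separated every A-fibre library from those of nociceptors and C-LTMRs, while Esrrb was clear of all others in proprioceptors alone. Esrrg (chromosome 1, 187608791 to 188214885), a constitutively active receptor of mitochondrial and muscle programmes, was read in proprioceptors at 371, 424 and 369.9 CPM. In Aβ SA1-LTMRs it stood at 85.9, 171 and 142 CPM, and in Aβ RA-LTMRs at 109.7, 99.4, 105, 88.2 and 77.7 CPM. Aδ-LTMRs had 75.2, 78.9 and 53.7 CPM and Aβ Field-LTMRs 57.4, 57.1 and 40.3. C-LTMRs had 3.57, 4.58 and 5.24 CPM, peptidergic nociceptors 1.87, 6.41 and 6.60, and nonpeptidergic nociceptors 1.497, 0.439 and 1.21. All 17 libraries of the 5 A-fibre subtypes (Aδ, the 3 Aβ and proprioceptors) thus lay above all 9 of nociceptors and C-LTMRs, and the 3 proprioceptor libraries lay above every other.

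In order of level, neighbours of Esrrg that did not differ by edgeR's test were SA1 and RA (adjusted p = 0.32), RA and Aδ (0.296), Aδ and Field (0.44), and peptidergic nociceptors and C-LTMRs (0.884). The steps that passed were proprioceptors over Aβ SA1-LTMRs (log2 fold change 1.55, SE 0.34, adjusted p = 0.0016), Aβ Field-LTMRs over peptidergic nociceptors (3.38, SE 0.37, adjusted p = 2.03e-07) and C-LTMRs over nonpeptidergic nociceptors (2.07, SE 0.38, adjusted p = 0.000116). Enrichment in 1 subtype means an adjusted p under 0.05 and a level at least 2-fold above each of the other 7. It was called for 6 members (16.2%), beside 5.53% of all tested genes, and in proprioceptors for 2 of them, Esrrg and Esrrb, beside 0.988%. For enrichment in other settings, the values given are the smallest of the 7 log2 fold changes and the largest of the 7 adjusted p. The 2 can come from different subtypes. With the satellite glia level of each library as a covariate, Esrrg kept its direction and lost the call (smallest log2 fold change 0.60, largest adjusted p = 0.645).

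Esrrb (chromosome 12, 86361117 to 86521628), a relative known from stem cells and the inner ear, was far lower in counts and, like Esrrg, highest in proprioceptors, with another order below them. Its 3 proprioceptor libraries had 21.0, 21.0 and 17.2 CPM. Aδ-LTMRs had 2.10, 3.01 and 7.43 CPM, Aβ RA-LTMRs 4.43, 2.99, 2.97, 2.75 and 7.52, Aβ SA1-LTMRs 2.55, 3.77 and 0.970, and Aβ Field-LTMRs 0.646, 1.62 and 1.25. C-LTMRs had 0.609, 1.11 and 1.17 CPM, peptidergic nociceptors 0.0958, 0.134 and 0.401, and nonpeptidergic nociceptors 0.107, 0.0925 and 0.0994. No proprioceptor library overlapped another subtype, while the ranges of Aβ Field-LTMRs and C-LTMRs did overlap. The difference from Aδ-LTMRs, the next in order, had a log2 fold change of 2.23 (SE 0.52, edgeR adjusted p = 0.00226). The enrichment call was lost without Aδ-LTMR libraries 1 and 2, which had another read length (smallest log2 fold change 1.42). That fit leaves 1 Aδ-LTMR library, the one at 7.43 CPM, and assumes that it varies like the other groups. The call was also lost with the glial (smallest 1.86, largest adjusted p = 0.245), endothelial (2.23 and 0.0634) or read-length covariate (1.41 and 0.217). These values need not be those against Aδ-LTMRs. Neighbours further down that did not differ were Aδ and RA (adjusted p = 0.976), RA and SA1 (0.288), SA1 and Field (0.178), Field and C-LTMRs (0.831) and the 2 nociceptor groups (0.243).

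Esrra (chromosome 19, 6910977 to 6921813), the partner of the coactivator PGC-1 in mitochondrial biogenesis, was read at 13.2, 16.9 and 16.8 CPM in proprioceptors and at 10.8, 10.9, 7.37, 12.2 and 22.8 CPM in Aβ RA-LTMRs. Aδ-LTMRs had 3.73, 5.09 and 10.4 CPM, Aβ SA1-LTMRs 5.45, 5.999 and 7.28, and Aβ Field-LTMRs 5.01, 3.75 and 4.92. Nonpeptidergic nociceptors had 1.60, 1.16 and 1.31 CPM, peptidergic ones 1.61, 1.13 and 1.01, and C-LTMRs 1.72, 1.40 and 1.64, all below every A-fibre library. Proprioceptors and Aβ RA-LTMRs overlapped, and neither stood clear of the other.

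**Figure D2:**
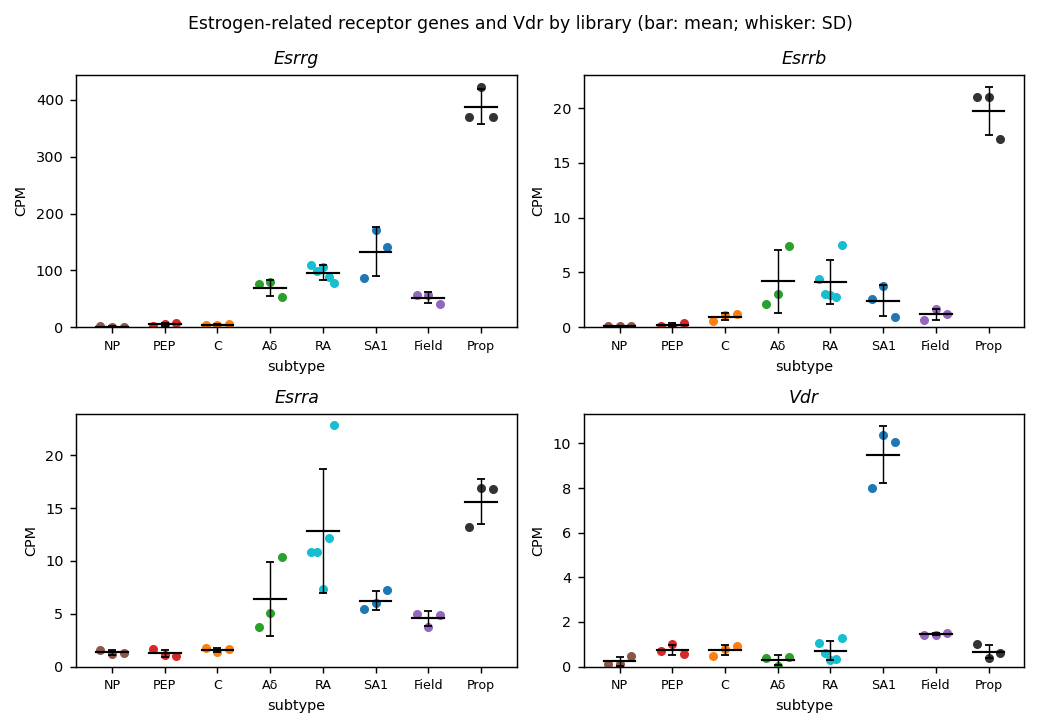
CPM of Esrrg, Esrrb, Esrra and Vdr in each library (points) by subtype, with the mean (bar) and SD (whisker); each panel has its own linear axis from 0. Esrrg and Esrrb are highest in all 3 proprioceptor libraries, Esrra is low in the 9 libraries of nociceptors and C-LTMRs, and Vdr stands at 8.02 to 10.4 CPM in Aβ SA1-LTMRs alone.

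Of 23 tested coactivators and corepressors, 21 differed over the subtypes, beside 78.3% of all tested genes. In the A-fibre subtypes 3 were at least 2-fold higher and none was as much lower, beside 15.6% and 12.9% of all tested genes. The median A-fibre log2 fold change of the list was -0.40, against 0.02 over all genes, so most of its members were lower by less than 2-fold. The 3 higher were Ppargc1a, Ppargc1b and Hdac3. Ppargc1a, encoding PGC-1α, stood at 144 ± 3.99 CPM in proprioceptors and 11.6 ± 1.38 CPM in nonpeptidergic nociceptors (SD, n = 3 each), and Ppargc1b at 17.2 ± 2.71 CPM in Aδ-LTMRs and 0.588 ± 0.185 CPM in nonpeptidergic nociceptors. The coactivator gene Ncoa7 went the other way in level, from 334 ± 20.7 CPM in peptidergic nociceptors to 61.7 ± 4.41 CPM in proprioceptors.

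The genes most like Esrrg over the 8 subtype means of log2 CPM, among 11217 genes that reached 5 CPM in a subtype, were Pmfbp1 (Pearson r = 0.995), Pls1 (0.991), Myadml2 (0.990), Ppargc1a (0.987) and Hs3st2 (0.985). For Esrrb they were Macrod2 and Chchd10 (0.976 each), Gpr3 (0.975), Ahcyl2 (0.974) and Hoxc8 (0.974). These correlations describe 8 points that share libraries and depth, and carry no test.

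Vdr (chromosome 15, 97854425 to 97910630), the receptor of active vitamin D, marked 1 subtype. It stood at 8.02, 10.4 and 10.1 CPM in the 3 Aβ SA1-LTMR libraries. The next subtype, Aβ Field-LTMRs with the same alleles, had 1.43, 1.42 and 1.51 CPM, followed by peptidergic nociceptors (0.687, 0.995 and 0.558), C-LTMRs (0.477, 0.780 and 0.931) and Aβ RA-LTMRs (1.03, 0.628, 0.295, 0.355 and 1.28). Proprioceptors had 0.998, 0.398 and 0.609 CPM, Aδ-LTMRs 0.385, 0.0372 and 0.427, and nonpeptidergic nociceptors 0.107, 0.116 and 0.481. The lowest Aβ SA1-LTMR library lay above every library of the other 7 subtypes.

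Vdr was the only member enriched in Aβ SA1-LTMRs, a call made for 0.155% of all tested genes. Its 7 log2 fold changes there ran from 2.70 against Aβ Field-LTMRs to 5.30 (SE 0.69, edgeR adjusted p = 5.46e-07) against nonpeptidergic nociceptors. The call was kept in each of the 38 alternative settings run. Below Aβ SA1-LTMRs, no neighbours in the order of Vdr levels differed, with adjusted p from 0.209 to 0.994. Its pattern was most like those of Gemin5 (r = 0.964), Dnm3 (0.950), Zfp398 (0.941), Syt17 (0.926) and Rfx7 (0.923), again over 8 means.

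Genes that make or carry vitamin D were read as well. All 6 tested genes of that list differed over the subtypes, beside 78.3% of all tested genes, with 1 higher and 1 lower in the A-fibre subtypes, beside 15.6% and 12.9%. Cyp2r1, the liver-type 25-hydroxylase, stood at 10.5 ± 0.938 CPM in peptidergic nociceptors, where it was enriched, and at 0.0433 ± 0.0450 CPM in Aβ RA-LTMRs. Lrp2, an uptake receptor for the vitamin D carrier, ran from 13.2 ± 6.56 CPM in Aβ RA-LTMRs (n = 5) to 1.13 ± 0.0666 CPM in nonpeptidergic nociceptors. Gc, the carrier itself, had at most a mean of 0.840 CPM, in Aδ-LTMRs, and no counts in Aβ SA1-LTMRs.

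Between the 2 Aβ subtypes that share alleles, Aβ SA1 and Aβ Field, 4 members were higher in SA1 (Vdr, Esrrg, Pgr and Rora; 10.8%, beside 3.21% of all tested genes) and 3 lower (Rarb, Nr2f1 and Pparg; 8.11%, beside 5.66%). Rora, the clock-linked orphan receptor gene, was read at 19.4, 44.1 and 36.1 CPM in SA1 and 16.1, 17.6 and 10.2 CPM in Field (log2 fold change 1.19, SE 0.29, edgeR adjusted p = 0.00706), with no overlap. The Vdr difference alone kept its call in all settings. Single omissions ended those of Rora (0.96 without SA1 library 2, 0.98 without Field library 3), Pgr (adjusted p = 0.0574 without Field library 1, 0.0687 without library 3), Rarb (0.0705 and 0.0593 without SA1 libraries 1 and 2, 0.083 without Field library 1) and Nr2f1 (0.0575 without SA1 library 2, 0.286 without Field library 2). For Pparg they were SA1 libraries 2 and 3 (adjusted p = 0.0652 and 0.109) and Field libraries 2 and 3 (0.0588 and 0.199). Esrrg (log2 fold change 1.37, SE 0.34, adjusted p = 0.00927) lost its call without the 5 libraries whose reads fell least in exons (1.23, adjusted p = 0.074) and with read length as a covariate (1.03, adjusted p = 0.169). In total, 3 to 7 members passed when single libraries were left out, with 3 without SA1 library 2 and 4 without Field library 3.

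Esr1, Pgr, Nr3c2 and Nr3c1, of the 5 steroid receptor genes in the set, had their lowest mean in nonpeptidergic nociceptors, and Esr1 and Pgr were close to absent there, while Esr2 had its highest. Esr1 (chromosome 10, 4611593 to 5005614), the estrogen receptor α gene, had 0.374, 0.0693 and 0.149 CPM there, which is 21, 3 and 9 counts. Peptidergic nociceptors had 8.79, 10.9 and 10.1 CPM, C-LTMRs 24.8, 17.9 and 18.8, and proprioceptors 13.8, 19.2 and 19.6. Aβ SA1-LTMRs had 34.0, 25.8 and 24.8 CPM, Aβ Field-LTMRs 25.7, 27.8 and 24.6, Aδ-LTMRs 39.3, 67.4 and 21.2, and Aβ RA-LTMRs 43.5, 47.5, 56.5, 31.1 and 34.6. The nonpeptidergic libraries lay below all others by more than an order of magnitude. Against peptidergic nociceptors, the nearest subtype, the log2 fold change of Esr1 was -5.59 (SE 0.43, edgeR adjusted p = 1.59e-10). On the authors' RPKM scale the order was different, with 14.0 in C-LTMRs against 10.04 in Aβ RA-LTMRs and 2.77 in proprioceptors, while nonpeptidergic nociceptors stayed lowest at 0.0208.

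Pgr (chromosome 9, 8899833 to 8968611), the progesterone receptor gene and a classical target of estrogen receptor α, had 3, 2 and 0 counts in the nonpeptidergic libraries, or 0.0535, 0.0462 and 0 CPM. Its levels were 2.30, 2.92 and 3.50 CPM in C-LTMRs, 4.27, 3.96 and 4.03 in peptidergic nociceptors, 6.73, 6.32 and 4.73 in Aδ-LTMRs and 5.17, 7.40 and 4.88 in Aβ Field-LTMRs. Aβ SA1-LTMRs had 8.85, 14.7 and 14.0 CPM, Aβ RA-LTMRs 10.4, 15.3, 16.9, 17.8 and 9.52, and proprioceptors 21.7, 16.9 and 15.7. In CPM every A-fibre library lay above every library of nociceptors and C-LTMRs, and the nonpeptidergic ones lay lowest. On the authors' RPKM scale Aδ-LTMR library 3 (1.40) and Field library 3 (1.37) lay below peptidergic library 1 (1.51). Pgr passed against each of the other 7 subtypes in the depletion test, with adjusted p of at most 8.52e-11, and no fold is given against so few counts.

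Nr3c2 (chromosome 8, 76899442 to 77245012), the mineralocorticoid receptor gene, had 4.31, 1.25 and 3.03 CPM in nonpeptidergic nociceptors. Peptidergic nociceptors had 16.4, 17.9 and 18.7 CPM, C-LTMRs 16.7, 17.1 and 14.7, Aδ-LTMRs 22.9, 26.9 and 17.3, and proprioceptors 29.8, 25.1 and 24.0. Aβ RA-LTMRs had 28.6, 32.1, 32.5, 40.5 and 25.4 CPM, Aβ Field-LTMRs 51.5, 41.5 and 40.1, and Aβ SA1-LTMRs 50.5, 56.5 and 42.5. The highest libraries were those of SA1 and Field, which overlapped each other, and the lowest were the nonpeptidergic ones, which overlapped none. The smallest difference of the latter was a log2 fold change of -2.48 against C-LTMRs (SE 0.28, edgeR adjusted p = 1.17e-07).

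Nr3c1, the glucocorticoid receptor gene, had another order. By subtype mean it was highest in peptidergic nociceptors, at 48.1, 44.8 and 45.3 CPM, and lowest in nonpeptidergic ones, at 12.4, 11.7 and 12.2 CPM. Subtype means elsewhere ran from 17.6 to 29.5 CPM, but Aβ RA-LTMR library 5, at 10.6 CPM, lay below the nonpeptidergic libraries. The 2 nociceptor groups differed by a log2 fold change of -1.93, nonpeptidergic minus peptidergic (SE 0.22, edgeR adjusted p = 1.56e-07). In CPM the peptidergic libraries lay above those of all other subtypes, but Nr3c1 was not enriched in them, because the differences from C-LTMRs (0.64), Aβ SA1-LTMRs (0.70) and Aβ Field-LTMRs (0.90) were under 2-fold. On the authors' RPKM scale Aβ SA1-LTMR library 1, at 7.64, lay above the peptidergic libraries, at 4.62 to 5.31. Esr2, the estrogen receptor β gene, was low throughout, with a mean of 1.52 CPM in nonpeptidergic nociceptors and at most 0.853 CPM in any other subtype.

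Among 17 tested genes that make, convert or answer to steroids, all 17 differed over the subtypes, beside 78.3% of all tested genes. In A-fibre subtypes 4 were higher and 1 lower, beside 15.6% and 12.9% of all. Sgk1, a kinase gene induced by mineralocorticoid and glucocorticoid receptors, stood at 53.7 ± 5.20 CPM in Aδ-LTMRs and 0.893 ± 0.0792 CPM in nonpeptidergic nociceptors. Srd5a2, encoding a steroid 5α-reductase, had a mean of 3.10 ± 4.70 CPM in Aβ RA-LTMRs (n = 5) and no counts in Aβ Field-LTMRs. Hsd17b1, an estradiol-forming enzyme gene, stayed at or below a mean of 0.308 CPM.

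**Figure D3:**
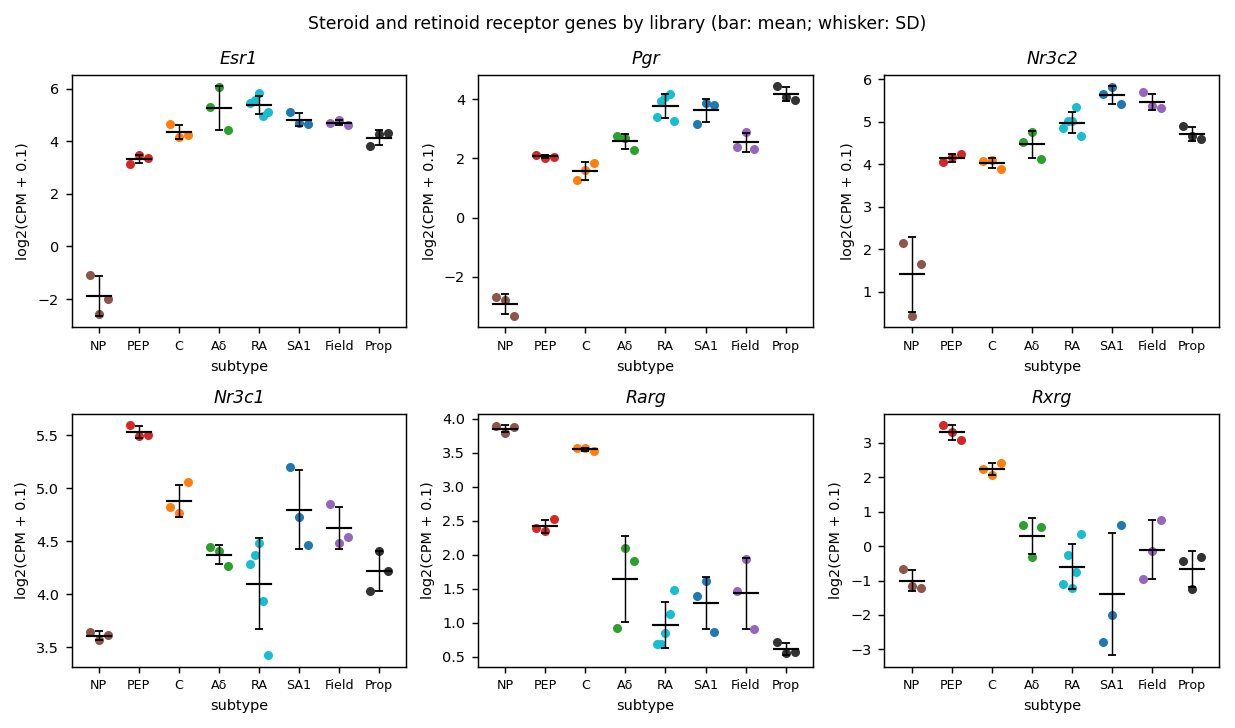
Esr1, Pgr, Nr3c2, Nr3c1, Rarg and Rxrg in each library (points), as log2(CPM + 0.1), with the mean (bar) and SD (whisker) per subtype; axes differ between panels and do not start at 0. Esr1, Pgr and Nr3c2 are lowest in the nonpeptidergic libraries, Rarg is highest there and in C-LTMRs, and Rxrg in peptidergic nociceptors and C-LTMRs.

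Depletion in 1 subtype, meaning at least 2-fold lower than each of the other 7, was called for 8 members (21.6%), beside 9.18% of all genes for any subtype and 6.5% for nonpeptidergic nociceptors. All 8 were depleted in nonpeptidergic nociceptors: Esr1, Pgr, Nr3c2, Esrrg, Rxra, Rara, Nr1d2 and Nr4a1. The summed satellite glia markers were also lowest in that subtype, as given above, and their part in the depletion was not tested beyond the fit with that level as a covariate. In that fit 4 of the members were depleted in a subtype, a count given without the share of all genes in the same fit. Of the 8, Esr1, Pgr, Nr3c2 and Rxra kept their calls in it. For depletion in other settings, the values given are the highest of the 7 log2 fold changes and the largest adjusted p, which can come from different subtypes. That highest value turned positive for Rara (0.85) and Nr4a1 (0.22), so at least 1 of the 7 comparisons changed sign. Esrrg (-0.90) and Nr1d2 (-1.26) missed the threshold.

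Retinoid receptors, which answer to vitamin A acids, split within the family. Rxra, the retinoid X receptor that pairs with many other members, had 1.02, 0.925 and 1.61 CPM in nonpeptidergic nociceptors and 9.06, 9.24 and 8.62 in peptidergic ones. C-LTMRs had 10.03, 11.1 and 10.5 CPM, Aδ-LTMRs 15.2, 18.5 and 18.3, and Aβ RA-LTMRs 11.7, 14.0, 13.3, 14.7 and 19.6. Aβ SA1-LTMRs had 12.2, 8.18 and 14.0 CPM, Aβ Field-LTMRs 21.7, 10.04 and 13.8, and proprioceptors 18.5, 10.4 and 13.4. The gap between the nonpeptidergic libraries and the rest was complete, and the smallest difference was a log2 fold change of -2.91 (SE 0.30, edgeR adjusted p = 2.16e-08). Rxrg, by contrast, stood at 11.3, 9.78 and 8.43 CPM in peptidergic nociceptors and 4.61, 4.11 and 5.21 CPM in C-LTMRs. Nonpeptidergic nociceptors had 0.535, 0.347 and 0.331 CPM, Aδ-LTMRs 1.42, 0.706 and 1.38, and Aβ RA-LTMRs 0.363, 0.732, 0.332, 0.489 and 1.19. Aβ SA1-LTMRs had 0.0458, 0.150 and 1.43 CPM, Aβ Field-LTMRs 0.415, 0.811 and 1.60, and proprioceptors 0.635, 0.318 and 0.711. Both high subtypes were clear of all others for Rxrg, but did not differ from each other in edgeR's test (log2 fold change 1.08, SE 0.66, adjusted p = 0.344).

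Among the retinoic acid receptors, Rarg and Rarb had different orders. Rarg stood at 14.7, 13.7 and 14.5 CPM in nonpeptidergic nociceptors, at 11.7, 11.7 and 11.3 CPM in C-LTMRs and at 5.14, 4.97 and 5.64 CPM in peptidergic nociceptors. All 17 A-fibre libraries lay below these 9, at 1.37 CPM, in a proprioceptor library, to 4.20 CPM, in an Aδ-LTMR library (log2 fold change of the A-fibre mean -2.10, SE 0.15, edgeR adjusted p = 4.69e-12). On the authors' RPKM scale Aδ-LTMR library 2 (2.68) lay above peptidergic library 1 (2.61). Rarb had 6.12, 6.80 and 7.63 CPM in proprioceptors, 4.09, 3.86 and 4.27 in Aδ-LTMRs, and 5.04, 5.0002, 4.31, 3.91 and 2.50 in Aβ RA-LTMRs. Aβ Field-LTMRs had 3.25, 1.82 and 2.67 CPM, peptidergic nociceptors 1.55, 1.32 and 1.62, Aβ SA1-LTMRs 0.672, 0.986 and 1.57, C-LTMRs 0.847, 0.896 and 1.16, and nonpeptidergic nociceptors 0.267, 0.647 and 0.630. In CPM the Rarb libraries of proprioceptors lay above all others, and Aβ SA1-LTMRs were the A-fibre subtype whose range met those of nociceptors and C-LTMRs. On the authors' RPKM scale proprioceptor library 1 (1.27) lay below Aβ RA-LTMR library 1 (1.30), and Field library 2 (0.292) below peptidergic library 2 (0.329). Rara had 0.481, 0.624 and 0.812 CPM in nonpeptidergic nociceptors. It was at 2.38, 2.74 and 3.11 CPM in peptidergic nociceptors, 2.91, 3.45 and 3.37 in C-LTMRs, 3.85, 4.83 and 6.85 in Aδ-LTMRs, and 5.59, 4.25, 4.66, 5.02 and 14.4 in Aβ RA-LTMRs. Aβ SA1-LTMRs had 1.33, 3.32 and 4.29 CPM, Aβ Field-LTMRs 3.51, 1.42 and 1.36, and proprioceptors 3.22, 3.16 and 3.74. No library outside the nonpeptidergic nociceptors was as low as theirs, and the smallest difference was a log2 fold change of -1.74 against Aβ Field-LTMRs (SE 0.48, edgeR adjusted p = 0.00473), lost without Field library 1 (-1.10, adjusted p = 0.0941).

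Of 14 tested genes of retinoid metabolism, 13 differed over the subtypes, beside 78.3% of all tested genes. In the A-fibre subtypes 4 were higher and 4 lower, beside 15.6% and 12.9%, and 4 were enriched in a subtype, beside 5.53%. Cyp26b1, which breaks down retinoic acid, had 16.3 ± 5.07 CPM in nonpeptidergic nociceptors, where it was enriched, and no counts in Aβ SA1-LTMRs. The retinoic acid-forming enzyme gene Aldh1a3 stood at 10.1 ± 1.27 CPM in peptidergic nociceptors and 0.298 ± 0.115 CPM in nonpeptidergic ones. Aldh1a1, of the same enzyme family, stood at 18.5 ± 8.68 CPM in Aβ Field-LTMRs and 0.123 ± 0.0995 CPM in nonpeptidergic nociceptors.

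The thyroid hormone receptor genes Thra and Thrb had their highest mean CPM in nonpeptidergic nociceptors, the subtype lowest for most other members, though on the authors' RPKM scale Thrb was higher in C-LTMRs (1.51 against 1.31 RPKM). Thra had 122, 127 and 128 CPM there and subtype means of 45.1 to 93.2 CPM elsewhere, and Thrb had 12.1, 15.3 and 13.3 CPM there, 4.66, 5.70 and 5.43 CPM in peptidergic nociceptors and 12.4, 10.6 and 11.1 CPM in C-LTMRs. The Thrb ranges of nonpeptidergic nociceptors and C-LTMRs overlapped. The last 1075 bases of Thra overlap the end of Nr1d1 on the other strand (chromosome 11, 98767932 to 98769006), the use of strand is not given in the sources used here, and reads from that stretch cannot be told apart. All 9 tested genes of thyroid hormone handling differed over the subtypes, beside 78.3% of all tested genes, with 3 higher and 3 lower in A-fibres, beside 15.6% and 12.9%. Thrsp, a thyroid hormone-responsive gene, was enriched in Aβ SA1-LTMRs at 48.0 ± 11.2 CPM, against 0.146 ± 0.174 CPM in nonpeptidergic nociceptors. Dio2, which activates thyroid hormone, had 7.76 ± 3.99 CPM in Aδ-LTMRs and 0.0143 ± 0.0247 CPM in Aβ SA1-LTMRs, and the transporter gene Slc16a10 had 11.3 ± 4.87 CPM in Aβ RA-LTMRs (n = 5) and 0.0988 ± 0.0311 CPM in nonpeptidergic nociceptors.

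The clock-linked receptors REV-ERB and ROR also differed. Nr1d2, encoding REV-ERBβ, had 2.87, 2.43 and 2.22 CPM in nonpeptidergic nociceptors, 9.11, 11.3 and 9.07 in peptidergic ones and 16.0, 18.7 and 17.6 in C-LTMRs. It had 59.3, 62.0 and 26.8 CPM in Aδ-LTMRs, 43.6, 60.1 and 45.5 in proprioceptors, 35.0, 37.1, 38.1, 33.8 and 31.5 in Aβ RA-LTMRs, 21.8, 36.7 and 26.3 in Aβ SA1-LTMRs and 14.1, 31.7 and 15.5 in Aβ Field-LTMRs. In CPM the nonpeptidergic libraries were the lowest and the peptidergic ones the next lowest, with no overlap up to there, and the log2 fold change between them was -1.97 (SE 0.29, edgeR adjusted p = 7.39e-06). On the authors' RPKM scale Field library 3 (1.55) lay below peptidergic library 2 (1.67). Nr1d1, encoding REV-ERBα, ran from 7.06 CPM in nonpeptidergic nociceptors to 20.2 CPM in Aβ RA-LTMRs as subtype means. Rorb had no counts in Aβ Field-LTMRs and at most a mean of 0.633 CPM, in Aβ RA-LTMRs. Of 17 tested clock partners, 16 differed over the subtypes, beside 78.3% of all tested genes, with 3 higher and 6 lower in A-fibres, beside 15.6% and 12.9%. Npas2 had its highest mean, 14.1 CPM, in nonpeptidergic nociceptors and its lowest, 0.301 ± 0.239 CPM, in Aβ RA-LTMRs (n = 5), whereas Hlf (9.14 ± 1.52 CPM) and Arntl (3.70 ± 0.811 CPM) were highest in proprioceptors and lowest, at 0.196 ± 0.130 and 0.155 ± 0.0740 CPM, in nonpeptidergic nociceptors.

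Aδ-LTMRs, fast mechanoreceptors of hair follicles, had 3 enriched members, 8.11% beside 0.494% of all genes. These were Nr4a2, a receptor gene induced by activity and needed by dopamine neurons, and the COUP-TF genes Nr2f1 and Nr2f2, known from neuronal patterning and, for Nr2f2, from veins. Nr4a2 had 32.1, 37.2 and 15.9 CPM in Aδ-LTMRs and 8.04, 2.39, 2.76, 5.51 and 2.87 CPM in Aβ RA-LTMRs. Peptidergic nociceptors had 3.66, 4.88 and 3.65 CPM, C-LTMRs 3.12, 3.22 and 4.71, proprioceptors 4.08, 2.50 and 2.15, Aβ Field-LTMRs 2.95, 4.16 and 0.569, Aβ SA1-LTMRs 1.04, 1.78 and 4.44, and nonpeptidergic nociceptors 1.82, 1.71 and 1.91. On the CPM scale the Aδ-LTMR libraries of Nr4a2 overlapped no other subtype. On the authors' RPKM scale they did, at 5.04, 5.98 and 6.39 RPKM against 6.55 and 5.30 RPKM in Aβ RA-LTMR libraries 1 and 4. Its smallest log2 fold change was 2.72 against Aβ RA-LTMRs (SE 0.47, edgeR adjusted p = 0.000181). The enrichment was lost with limma on log2(RPKM + 0.1) (smallest log2 fold change 1.34, largest adjusted p = 0.222) and log2(RPKM + 1) (1.04 and 0.128). It was also lost with the glial (2.09 and 0.41) or read-length covariate (1.93 and 0.214).

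Nr2f1 had 22.6, 14.5 and 4.44 CPM in Aδ-LTMRs, 3.08, 5.79 and 6.89 in proprioceptors, 1.75, 7.81 and 1.55 in Aβ Field-LTMRs and 3.63, 3.60, 4.27, 3.02 and 3.15 in Aβ RA-LTMRs. Peptidergic nociceptors had 1.49, 2.35 and 2.08 CPM, C-LTMRs 1.51, 1.50 and 2.42, Aβ SA1-LTMRs 0.871, 0.814 and 1.10, and nonpeptidergic nociceptors 0.731, 0.647 and 0.978. Nr2f2 had 81.4, 55.3 and 15.9 CPM in Aδ-LTMRs, 14.5, 38.1 and 9.75 in Aβ Field-LTMRs, 13.1, 18.3 and 23.3 in proprioceptors, and 13.0, 9.46, 12.3, 14.7 and 15.1 in Aβ RA-LTMRs. Peptidergic nociceptors had 13.8, 16.7 and 17.5 CPM, Aβ SA1-LTMRs 16.99, 10.3 and 7.22, C-LTMRs 8.63, 9.37 and 10.7, and nonpeptidergic nociceptors 5.49, 7.17 and 7.24. For both genes, libraries 1 and 2 of Aδ-LTMRs were high and library 3 lay within the range of other subtypes.

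Those 2 calls were close to the threshold. The smallest log2 fold change of Nr2f1 was 1.39 against proprioceptors (SE 0.50, edgeR adjusted p = 0.0428) and that of Nr2f2 was 1.32 against Aβ Field-LTMRs (SE 0.44, adjusted p = 0.043). Leaving out single libraries ended the Nr2f1 call in 9 cases and the Nr2f2 call in 14. For Nr2f1 these were Aδ-LTMR library 1 (0.83, adjusted p = 0.315) and 2, peptidergic library 3, C-LTMR library 1, Field libraries 1 and 3, and all 3 proprioceptor libraries. For Nr2f2 they were Aδ-LTMR libraries 1 (0.79, adjusted p = 0.29) and 2, nonpeptidergic libraries 2 and 3, all 3 of the peptidergic and of the C-LTMR libraries, Field libraries 1 and 3, and proprioceptor libraries 1 and 2. Libraries 1 and 2 also had another read length. Without them the smallest log2 fold change of both genes took the other sign (-0.24 and -0.39), which restates the level of library 3. That of Nr4a2 stayed positive at 1.85, but its enrichment call was lost in that fit, which keeps only Aδ-LTMR library 3.

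Markers of endothelial cells, like these 3 genes, were highest in Aδ-LTMRs. Their summed level in Aδ-LTMR libraries 1, 2 and 3 was 83.0, 60.8 and 44.4 CPM, and all 11 markers had counts in each of them. Of the 11 markers, 10 were highest in Aδ-LTMRs, among them Flt1 at a mean of 21.6 CPM and Pecam1 at 8.06 CPM. With the endothelial level as a covariate, Nr4a2 (smallest log2 fold change 2.92, largest adjusted p = 0.222), Nr2f1 (1.68 and 0.398) and Nr2f2 (1.53 and 0.402) kept their direction and lost the call. Without it those smallest values were 2.72, 1.39 and 1.32. The level, as a mean log2 CPM of the markers, averaged 1.90 in Aδ-LTMRs and -2.69 to -1.09 in the other subtypes. This fit could therefore hardly tell the level from the subtype. The part of endothelial RNA in these levels was not otherwise tested.

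**Figure D4:**
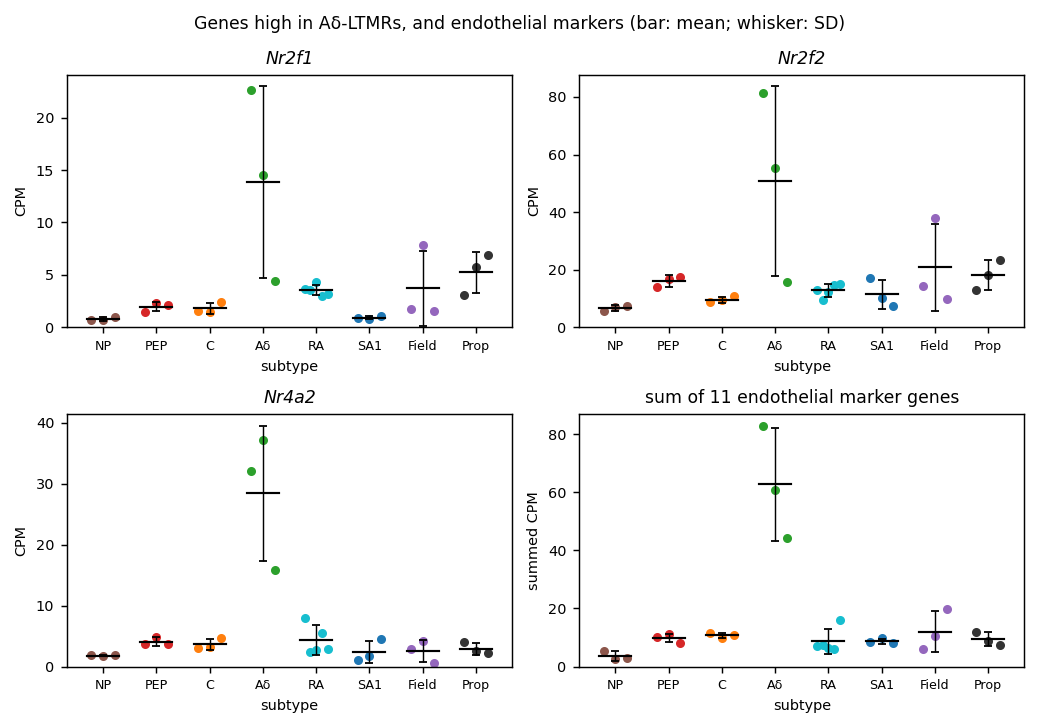
CPM of Nr2f1, Nr2f2 and Nr4a2, and the summed CPM of 11 endothelial marker genes, in each library (points) by subtype, with the mean (bar) and SD (whisker), on linear axes from 0. In Aδ-LTMRs the Nr2f1 and Nr2f2 points spread from 4.44 to 22.6 and from 15.9 to 81.4 CPM, Nr4a2 stands clear of the other subtypes, and the endothelial sum is 44.4 to 83.0 CPM.

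The activity-induced receptor gene Nr4a1 was spread widely within subtypes. It had 2.37, 4.55 and 6.91 CPM in nonpeptidergic nociceptors, 11.9, 18.96 and 11.5 in peptidergic ones, 9.19, 8.93 and 16.2 in C-LTMRs and 33.5, 30.1 and 31.9 in Aδ-LTMRs. Aβ RA-LTMRs had 64.3, 14.1, 12.9, 23.4 and 42.6 CPM, Aβ SA1-LTMRs 10.97, 13.1 and 15.5, Aβ Field-LTMRs 19.5, 18.5 and 15.7, and proprioceptors 45.9, 35.1 and 56.9. The nonpeptidergic libraries were lowest, and the smallest difference, against C-LTMRs, had a log2 fold change of -1.31 (SE 0.44, edgeR adjusted p = 0.0227). That call ended without nonpeptidergic library 1 (adjusted p = 0.125) or 2 (adjusted p = 0.062), or without C-LTMR library 3 (-0.97, adjusted p = 0.136). The summed level of 16 immediate early and stress genes, which excludes the NR4A genes, was 1125 to 1708 CPM in proprioceptors, 1236 to 1590 CPM in peptidergic nociceptors and 414 to 880 CPM in nonpeptidergic ones. Its part in the NR4A levels was not tested.

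When the 5 A-fibre subtypes were averaged and set against the averaged nociceptors and C-LTMRs, 18 of the 37 tested members (48.6%) were higher, beside 15.6% of all tested genes. Another 3 (8.11%) were lower, Rarg, Rxrg and Esr2, beside 12.9% of all. The median log2 fold change was 0.95 over the members and 0.02 over all genes. The largest, apart from Nr5a2 described below, were Esrrg (5.29, SE 0.23, edgeR adjusted p = 3.71e-16), Esrrb (3.82, SE 0.33), Pgr (3.77, SE 0.21), Esr1 (3.10, SE 0.20) and Esrra (2.55, SE 0.20). For Pgr and Esr1 the size rests on the near-absence from nonpeptidergic nociceptors. Only Esrrg, Esrra and Pgr had no overlap of libraries in CPM among the 18. The share of all tested genes with no overlap was not computed. Summed satellite glia markers were also higher in the A-fibre subtypes for 13 of 16 genes. With the glial level as a covariate 11 members were higher, and Rara, Ppara, Vdr, Nr2f1 and Nr4a1 took the other sign. Counts in that fit, here and in the contrasts below, are given without the share of all genes called in it. They do not show whether members lost calls more often than other genes.

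Several A-fibre calls near 2-fold rested on single libraries. Rara (1.07) fell below the threshold without Aβ RA-LTMR library 5 (0.98), SA1 library 3 (just under 1) or Field library 1 (0.94), Nr1d1 (1.04) without Field library 1 (0.98) or proprioceptor library 1 (0.96), and Ppara (1.16) without SA1 library 3 (0.96). The Vdr call (1.16) rests on Aβ SA1-LTMRs, since the other A-fibre means of Vdr were 0.283 to 1.45 CPM. Nr5a2, known as LRH-1, is counted among the 18 and had a mean of 4.21 CPM in Aβ RA-LTMRs, 1.65 CPM in Aδ-LTMRs and at most 0.181 CPM elsewhere, with 3 counts in all in the proprioceptor libraries, and its call ended without proprioceptor library 3.

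**Figure D5:**
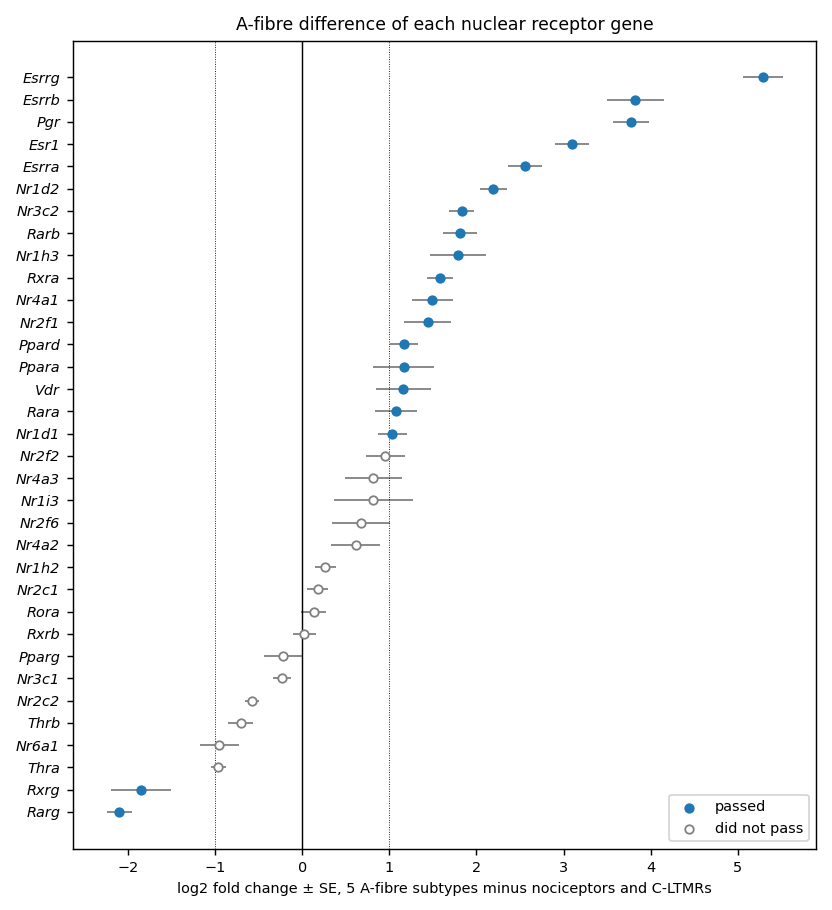
Log2 fold change ± SE of the averaged 5 A-fibre subtypes over the averaged nociceptors and C-LTMRs for 34 members (Rorb, Esr2 and Nr5a2, with 3 counts or fewer in a subtype, are left out). Filled points passed at an adjusted p under 0.05 and at least 2-fold (dotted lines); they run from Esrrg at 5.29 to Nr1d1 at 1.04 on the right, and Rxrg and Rarg lie on the left at -1.85 and -2.10.

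Between the 2 kinds of nociceptor, 17 members (45.9%) were lower in the nonpeptidergic ones, beside 15.3% of all genes, and 2 (5.41%) were higher, beside 10.9%. The median difference, nonpeptidergic minus peptidergic, was -1.27 over the members and -0.03 over all genes. The higher ones were Rarg (1.45, SE 0.30, edgeR adjusted p = 0.000444) and Thrb (1.37, SE 0.30, adjusted p = 0.000726). Among the lower were Esr1, Rxrg (-4.59, SE 0.77, adjusted p = 4.36e-05), Nr4a3 (-4.11, SE 0.70, adjusted p = 5.16e-05), Rxra, Ppara (-2.76, SE 0.72, adjusted p = 0.00358) and Nr3c2. Summed glial markers were 1222 to 1893 CPM in peptidergic nociceptors, above the nonpeptidergic libraries, and 12 of the 16 were lower in the nonpeptidergic ones. With that level as a covariate 7 members passed. Single omissions ended the calls of Vdr (adjusted p = 0.0654 to 0.167 without nonpeptidergic library 1 or 2, or peptidergic library 1 or 2) and Nr2f2 (0.0528 to 0.0858 without nonpeptidergic library 1, or peptidergic library 2 or 3). The Nr2f1 call (adjusted p = 0.0459) ended in 12 of the single omissions, in which its log2 fold change stayed between -1.18 and -1.51.

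Proprioceptors against the mean of the 3 Aβ subtypes gave 9 higher members (24.3%), beside 10.7% of all genes, and 2 lower (5.41%), beside 6.24%. Esrrb (3.14, SE 0.36, edgeR adjusted p = 2.91e-07), Esrrg (2.16, SE 0.24, adjusted p = 2.16e-07) and Rarb (1.59, SE 0.26, adjusted p = 3.83e-05) were higher with no overlap of libraries in CPM. Nr4a3 (1.79), Nr2f6 (1.50), Nr4a1 (1.24), Nr2f1 (1.23), Esrra (1.13) and Rorb were the others, each with overlap. Here too, the share of all tested genes with no overlap was not computed. Of Rorb, proprioceptors held 7, 15 and 30 counts, Aβ RA-LTMRs 0 to 68 and Aβ Field-LTMRs none. Lower were Vdr (-1.72, SE 0.53, adjusted p = 0.0151), which is high in Aβ SA1-LTMRs, and Nr5a2. Leaving out proprioceptor library 2 ended the calls of Vdr, Nr2f1 and Nr2f6 (adjusted p = 0.0997, 0.0651 and 0.104), and leaving out library 3 ended those of Vdr, Nr2f1, Nr2f6, Nr4a1 and Rorb (0.0713, 0.125, 0.0843, 0.0533 and 0.0555). Without library 3, 6 members passed in all. The Nr2f6 call was also lost with limma on log2(RPKM + 0.1) and log2(RPKM + 1), and with the glial or read-length covariate. On the authors' RPKM scale proprioceptor library 1 of Nr2f6 (3.81) lay below every Aβ library, and proprioceptor libraries 2 and 3 stood at 14.0 and 15.9. Of the satellite glia markers 5 were also higher in proprioceptors, as were 8 of the immediate early and stress genes. With the glial level as a covariate 5 members passed.

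The remaining members are given by their range. Pparg had subtype means of 0.701 to 1.87 CPM, Ppara 0.174 to 2.27 and Ppard 1.87 to 11.4, all peroxisome proliferator-activated receptor genes, and Ppard had its highest mean in proprioceptors. Nr1h2 ran from 18.4 to 29.2 CPM, its relative Nr1h3 from 0.254 to 1.40, and the xenobiotic receptor gene Nr1i3 from 0.137 to 0.656. The orphan receptor genes Nr2c1, Nr2c2 and Nr6a1 ran from 7.20 to 10.6, 37.6 to 82.4 and 2.86 to 9.72 CPM, and Nr2f6 from 0.563 to 3.00. The 2 scales disagreed for Nr2f6, which had a mean over subtypes of 6.62 RPKM. Its Aβ Field-LTMR library 2 had no counts but 3.93 RPKM, so its CPM may understate its level. Nr4a3 ran from 0.183 CPM in nonpeptidergic nociceptors to 4.95 CPM in Aδ-LTMRs.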

How the data were processed

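Per the file headers, the authors deposited raw counts per Ensembl gene and RPKM values for the 26 libraries. Per the submitters' processing notes, the tools were FastQC 0.11.3, STAR, Cuffdiff, HTSeq 0.6.1 and DESeq2 1.14.1, on mm10 and with no role given. Per the labels' protocols, RNA was amplified with a NuGEN kit. An alignment summary deposited by the authors gave mapping, exonic and duplicate shares as a fraction, GC content in percent, and mapped reads as counts. The rlog table (log2 values of the authors) was not used.

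Counts were tested in R 4.3.3 with edgeR 4.0.16: filterByExpr (17411 genes), TMM, robust quasi-likelihood fit over 8 groups, and Benjamini-Hochberg adjustment over all tested genes. Calls needed an adjusted p under 0.05 and at least 2-fold. Each SE is the log2 fold change over the root of F. CPM are TMM-scaled, with a prior count of 2 for log2 CPM. RPKM served to compare levels between genes and in the limma alternatives, as log2(RPKM + 0.1) and log2(RPKM + 1). Coordinates are GENCODE release M21 on GRCm38. The fit was tested on simulated data. Alternatives used DESeq2 1.42.0 and limma 3.58.1, covariates and left-out libraries; leaving out the 5 libraries under 60% exonic was chosen after seeing the data. Figures used Python 3.11.15 and matplotlib 3.10.9.

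All 39 members are accounted for. Values in each library were given for Esrrg, Esrrb, Vdr, members enriched or depleted in 1 subtype, and the 12 with the largest gap of subtype means at 5 CPM or more; Esrra, and Rarg, Nr3c1, Rora, Thra and Thrb for some of their libraries, were added after their values were seen. The 5 most like genes, and up to 3 of each pathway list by gap, were named. The members and lists were chosen with earlier results of these data known.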

Additional observations from a re-analysis of the deposited data

Results flagged for a closer look

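In Aβ RA-LTMRs, the only subtype with more than 3 libraries, 3 of 37 tested members had a library far from the other 4, and chance flags about 1 in 20. Rara stood at 14.4 CPM in library 5, the next library at 5.59 CPM. Ppard stood at 3.75 CPM in library 5, the next at 6.78 CPM. Nr1h3 stood at 2.07 CPM in library 2, the next at 1.07 CPM. Library 5 had the lowest exonic share of all libraries, 45.7%, and the part of that share in these values was not tested.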

How the results depend on the processing

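Without single libraries, 32 to 34 members differed over the subtypes, 4 to 6 were enriched, 7 to 10 depleted, 16 to 19 higher and 3 to 4 lower in A-fibre subtypes, and 3 to 7 changed between SA1 and Field, 16 to 21 between the nociceptors and 6 to 12 between proprioceptors and the Aβ subtypes. With limma on log2(RPKM + 1), 3 were enriched, 3 depleted, 7 higher in A-fibres, and 3 (SA1 and Field), 10 (nociceptors) and 5 (proprioceptors) changed. With log2(RPKM + 0.1), 5 were lower in A-fibres. These scales moved the median of all genes by -0.21 and -0.18 for A-fibres and by 0.17 for SA1 over Field. With the satellite glia level as a covariate, 1 was enriched, 4 depleted, 11 higher in A-fibres, 7 changed between nociceptors and 5 between proprioceptors and Aβ. With the endothelial level, with read length, or without Aδ-LTMR libraries 1 and 2, 2 were enriched. With read length, or without the 5 libraries under 60% exonic, 4 changed between SA1 and Field. By adjusted p alone, 7 were lower in A-fibres and 18 changed between proprioceptors and Aβ. All these counts are of members alone, without the share of all genes called in the same setting.

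Signs reversed in 16 cases. With the glial covariate these were depletion of Rara (0.85) and Nr4a1 (0.22), the A-fibre values of Rara (-0.51), Ppara (-0.63), Vdr (-0.37), Nr2f1 (-0.53) and Nr4a1 (-0.036), the nociceptor values of Vdr (0.13), Nr2f1 (1.01), Nr2f2 (0.22) and Nr4a1 (0.20), and Nr2f1 in proprioceptors (-0.049). The Aδ values of Nr2f1 and Nr2f2 turned to -0.25 and -0.36 with read length, and to -0.24 and -0.39 without Aδ-LTMR libraries 1 and 2. The cause was not tested. Of 72 calls on single members, 20 held in every setting and 21 were lost in at least 1 single omission.

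Replicate numbers did not pair the libraries: of 84 same-numbered pairs, 4 correlated over 0.1, and 8 of 26 libraries correlated best with their own number. With the replicate block, 33 members differed, 5 were enriched, 8 depleted, 17 higher and 3 lower in A-fibres, and 6, 19 and 11 changed in the other contrasts. Members at a few counts, such as Rorb, Esr2 and Nr5a2, are limited by depth.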

Other observations

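Single libraries carried several members together. Aδ-LTMR library 3 held more Esrrb (7.43 CPM) and Esrra (10.4 CPM) than libraries 1 and 2 (2.10 and 3.01, and 3.73 and 5.09 CPM) and less Nr1d2 (26.8 CPM against 59.3 and 62.0). Aβ Field-LTMR library 2 held 7.81 CPM of Nr2f1 and 38.1 CPM of Nr2f2, against at most 1.75 and 14.5 CPM in the other Field libraries. Aβ RA-LTMR library 1 held the most Nr4a1 (64.3 CPM) and Nr4a2 (8.04 CPM) of its subtype, and there the 16 immediate early and stress genes summed to 1321 CPM, against at most 1109 CPM in the other 4. No test was made of these values.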
